A study of Mus musculus with 22 samples.

Results

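Doxycycline-induced FT were compared with control FT to ask which miRNAs differ in the induced tube. The comparison used 10 of the 22 samples of the series, 5 control FT (CT1 to CT5) and 5 doxycycline-induced FT (FT1 to FT5), all from mice. It was read on the 136 of 566 mouse miRNAs on the panel that had a mean deposited count of at least 50 over the 10 tubes, called well-detected here. The limit was not a sharp break, since 12 of the 136 had a mean of 50 to under 60 and 20 further miRNAs a mean of 40 to under 50. The labels give the tissue and the induction. By the study's genotype list, the control tubes were uninduced and carried floxed (fl) alleles. CT1 and CT3 were Brca1 fl/fl, CT2 was Brca1 fl/+, CT4 was Brca2 fl/fl and CT5 was Brca2 fl/+. Of the induced tubes, FT2 was Brca1 -/-, FT4 was Brca2 -/-, and FT1, FT3 and FT5 were Brca2 -/+. No comparison was made by genotype. The study's introduction describes the models as using a Pax8-Cre recombinase that doxycycline induces. The age of the mice and the time on doxycycline are not given in the sources used here. With all loci in that list counted, CT1 to CT5 differed from each other in genotype, and so did FT1 to FT4. FT5 shared the genotype of FT3, but the list gives each of them its own plasma sample. The tubes thus read as separate mice, and the p-values measure the spread between these samples.

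The fallopian tube is lined by secretory and multiciliated epithelial cells on a wall of stroma and smooth muscle, and the secretory cells are a known origin of high-grade serous carcinoma. A miRNA guides a silencing complex to mRNAs that pair with its seed, the bases near its 5′ end, so miRNAs with the same seed form a family with overlapping targets. The let-7 family restrains growth genes and is a classical marker of differentiated tissue, the miR-200 family maintains the epithelial state, and the miR-34 and miR-449 families are needed to build motile cilia. In bulk tissue, fewer cells of a type cannot be told apart from less of a miRNA per cell.

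The mature sequences of the families that the values below turn on are shown so that shared seeds can be seen. Capitals mark the seed, bases 2 to 8. Sequences and positions are from RefSeq (GRCm38.p6), in which 102 of the 136 well-detected miRNAs were matched. The first set is the let-7 family, which has 1 seed and whose members differ from each other at 1 to 6 bases in all, so hybridization probes may not separate them fully.
let-7a: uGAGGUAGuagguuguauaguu
let-7b: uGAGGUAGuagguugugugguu
let-7c: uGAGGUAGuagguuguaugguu
let-7d: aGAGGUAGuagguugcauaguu
let-7e: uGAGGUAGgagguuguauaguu
let-7f: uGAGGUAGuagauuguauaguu
let-7g: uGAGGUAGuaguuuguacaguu
let-7i: uGAGGUAGuaguuugugcuguu
miR-98: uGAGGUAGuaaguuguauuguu

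The second set holds the miR-34 and miR-449 members with a matched sequence, the miR-29 family and miR-204, which lay low in several induced tubes. miR-34b-5p and miR-449a share a seed, while miR-34b-3p comes from the other arm of the miR-34b hairpin.
miR-34b-5p: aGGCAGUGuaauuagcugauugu
miR-449a: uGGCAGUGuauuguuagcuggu
miR-34b-3p: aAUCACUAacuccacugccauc
miR-29a: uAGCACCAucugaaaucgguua
miR-29b: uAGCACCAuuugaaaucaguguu
miR-29c: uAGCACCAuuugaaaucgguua
miR-204: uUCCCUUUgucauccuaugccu

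The third set is the miR-200 family, in which a single base inside the seed separates miR-200b, miR-200c and miR-429 from miR-200a and miR-141.
miR-200b: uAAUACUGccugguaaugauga
miR-200c: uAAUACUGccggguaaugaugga
miR-429: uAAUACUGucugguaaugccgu
miR-200a: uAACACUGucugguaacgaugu
miR-141: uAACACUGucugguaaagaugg

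The last set holds miR-99b and miR-125a-5p, which lie beside let-7e, then the Hox-locus miRNAs miR-10a and miR-10b, and 3 single miRNAs described below.
miR-99b: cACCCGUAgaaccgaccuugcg
miR-125a-5p: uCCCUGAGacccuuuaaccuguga
miR-10a: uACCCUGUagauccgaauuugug
miR-10b: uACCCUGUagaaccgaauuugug
miR-146a: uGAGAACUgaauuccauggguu
miR-21: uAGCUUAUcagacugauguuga
miR-126-3p: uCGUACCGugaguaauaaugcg

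The values are NanoString nCounter counts, in which each captured miRNA molecule is counted by a colour barcode. They were scaled between tubes by a fixed set of 100 miRNAs, those with the highest mean count over the tissue samples of the series, and are called normalized counts. The scaling factor of a tube was the geometric mean of its counts over that set. Total miRNA counts were 71260 to 288481 in CT and 74888 to 598321 in FT. That mean was 199 to 710 in CT, 1332 in FT1, 196 in FT2, 215 in FT3, 234 in FT4 and 853 in FT5. It was lowest in FT2 to FT4 and CT5. Total counts were lowest in CT5 (71260) and FT3 (74888), while FT2 had 175531 and FT4 215577, more than CT1 (135384). Epithelial markers were present, with all 5 members of the miR-200 family well-detected, and so were 3 of the 5 smooth muscle and stroma markers and 0 of the 3 brain markers. The alleles themselves could not be checked, because the panel measures miRNAs. FT2 and FT4 stood apart from CT. Across the 136 well-detected miRNAs the log2 levels of the CT tubes correlated with each other at Pearson r between 0.887 and 0.974, while FT2 correlated with them at 0.491 to 0.621 and FT4 at 0.738 to 0.83. FT1 lay at 0.814 to 0.883, FT3 at 0.793 to 0.882 and FT5 at 0.891 to 0.968, which overlaps the values among the CT tubes.

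Only miR-122, the abundant miRNA of liver cells, passed the test in FT against CT (edgeR quasi-likelihood test with Benjamini-Hochberg adjustment over 566 miRNAs, threshold 0.05). This is 0.177% of the miRNAs tested. The call was lost when a minimum mean count of 20 or 50 was set for testing (edgeR adjusted p = 0.103 and 0.0963), with miR-425 scaling (0.108), after quantile normalization with limma (0.421), with limma on log2 counts (0.546 and 0.741 at pseudocounts of 1 and 10) and with the methods' t-test (0.819). An unadjusted p below 0.05 was found for 41 of the 566 miRNAs, 40 of them higher in FT (7.07%) and only miR-34b-3p lower (0.177%). Among the 136 well-detected miRNAs the counts were 30 higher and 1 lower. Of the 136, 13 had a mean count under 50 in CT and passed the limit through FT. All 13 were higher in FT, so the 30 and the well-detected median given next are partly set by that limit. The median log2 fold change was 0.28 over the well-detected miRNAs and 0.15 over all 566. After quantile normalization with limma the well-detected median was -0.08. The edgeR fold change is close to a ratio of mean counts, so tubes with high counts weigh most in it. Counted by tube, at least 3 induced tubes lay above all CT for 36 of the 136 miRNAs and below all CT for 28. Over all 566 these shares were 16.6% and 12.2%. Leaving out a tube moved the number of miRNAs past the threshold. It was 12 without FT3 and 10 without FT5, all higher in FT, and 2 without FT1, while 0 passed without CT2 or without CT3. The 12 without FT3 included let-7i, miR-210, miR-486 and miR-532-5p. DESeq2 called 4 miRNAs, miR-122, miR-486, miR-210 and let-7i.

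The tubes differed from CT in unequal degree. A miRNA was called outside the CT range in a tube when its normalized count lay above the highest or below the lowest of the 5 CT. Of the 136 well-detected miRNAs, FT2 had 59 above the range and 58 below it, FT4 had 56 above and 48 below, and FT1 had 41 above and 47 below. FT3 had 45 above and 36 below, and FT5 had 30 above and 19 below. Over all 566 miRNAs, most of them near background, the shares above and below were 7.95% and 55.1% in FT1, 51.4% and 12.7% in FT2, 29.3% and 15.2% in FT3, 30.2% and 19.1% in FT4, and 6.18% and 21% in FT5. A level at least 2-fold from the geometric mean of CT was found for 93 of the 136 miRNAs in FT2, 73 in FT4, 56 in FT1, 42 in FT3 and 9 in FT5. The same count was 6 to 12 in single CT tubes, each set against the other 4, so FT5 lay within the span of the control tubes. Below, "the CT mean" beside a ratio for 1 tube is this geometric mean.

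Few miRNAs lay outside the range in all or nearly all induced tubes. Among the well-detected miRNAs, 3 lay above the range in 5 tubes (miR-122, miR-146a and miR-486), 5 in 4 tubes (let-7e, miR-99b, miR-21, miR-1955 and miR-1966), 28 in 3 tubes, 32 in 2, 48 in 1 and 20 in 0. Below the range, 0 lay in 5 tubes, 6 in 4 tubes (miR-29b, miR-125a-5p, miR-125b-5p, miR-125b-3p, miR-301a and miR-872), 22 in 3 tubes, 34 in 2, 50 in 1 and 24 in 0. Over all 566 miRNAs, 0.53% lay above the range in 5 tubes and 0% below it, and 1.77% lay above and 2.65% below in at least 4. With TMM scaling miR-486 alone lay above the range in 5 tubes. For 93 of the 136 miRNAs (68.4%), 1 induced tube or more lay above the range and another below it. Of the 136, 13 had a mean count under 50 in CT and passed the limit through FT, so their higher level there supports nothing. These were miR-122, miR-486, miR-532-5p, miR-672, miR-1198, miR-2132, miR-2140, miR-2146, miR-449a, miR-202-3p, miR-382, miR-709 and miR-93.

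**Figure D1:**
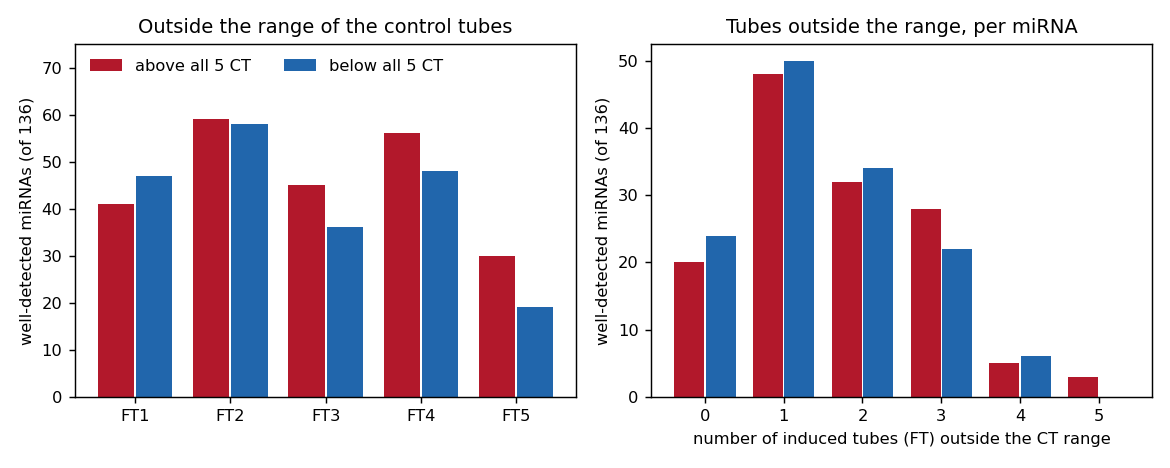
Left, the number of the 136 well-detected miRNAs above (red) or below (blue) all 5 control tubes in each doxycycline-induced tube; right, the number of miRNAs by how many induced tubes lay outside the control range. FT2 has 59 above and 58 below and FT5 has 30 and 19, and 3 miRNAs were above in all 5 tubes and 0 below.

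miR-122 was near background in CT and far above it in FT3 and FT5. Its normalized counts in CT1 to CT5 were 13.1, 7.21, 9.9, 12.6 and 14.1, and in FT1 to FT5 they were 18.5, 30.8, 1269, 31.8 and 168. The groups did not overlap in normalized counts, while the deposited counts of FT2 and FT4, given below, lay inside the span of CT. The log2 fold change was 4.74 ± 0.95 (SE, 5 against 5; edgeR adjusted p = 0.0201), with an adjusted p of 0.0611 without CT2 and 0.0685 without CT3. Without FT3 the log2 fold change was 2.50, with an adjusted p of 0.0245. The deposited counts in CT were 6 to 17, below the level of the negative controls (mean plus 2 SD) in all 5, and those of FT2 and FT4 were 13 and 16, so these were not detectable above background. The size of the fold is thus set by the background, and its log2 value ran from 2.27 to 7.51 over the settings tried. The other liver markers, miR-192 and miR-194, were not well-detected, and FT3 had 51.9 and 21.6 normalized counts of them against CT ranges of 22.9 to 53.9 and 25.3 to 37.6.

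The erythrocyte miRNAs were high in FT3. miR-451, which red blood cell precursors make in large amounts, had 85.2, 123, 156, 186 and 567 normalized counts in CT1 to CT5 and 218, 163, 2194, 187 and 224 in FT1 to FT5. Of the induced tubes, FT3 alone lay above the CT range, and the log2 fold change of 1.42 ± 0.73 (SE, edgeR adjusted p = 0.688) was -0.17 without it. miR-144, made from the same transcript, was below the well-detected limit and had 121 in FT3 against 13.8 to 82 in CT. miR-486, another erythroid and muscle miRNA, had 13.1, 24.2, 23.8, 19.3 and 25.8 in CT1 to CT5 and 41.5, 204, 203, 71.6 and 33.2 in FT1 to FT5. All 5 induced tubes were above all CT tubes, and its log2 fold change was 2.36 ± 0.56 (SE, edgeR adjusted p = 0.0754). Leaving out FT1, FT3 or FT5 gave an adjusted p of 0.0298, 0.0445 or 0.0111, and it was 0.0991 without FT2, 0.1 without FT4 and 0.16 to 0.248 without a CT tube. The CT counts of miR-486 were also below the negative-control level in all 5 tubes. The summed level of the 3 erythrocyte markers was 113 to 675 in CT and 273 to 2518 in FT.

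miR-146a, a feedback regulator induced by NF-κB signalling, was above the CT range in 5 of 5 induced tubes at counts well over background. Its normalized counts were 223, 202, 152.5, 171 and 162 in CT1 to CT5 and 618, 1073, 249, 260 and 274 in FT1 to FT5. FT1 and FT2 were at 3.43 and 5.96 times the CT mean, and the other 3 tubes at 1.38 to 1.52 times. The log2 fold change was 1.44 ± 0.55 (SE), which did not pass the test (edgeR adjusted p = 0.437). The related miR-146b had 56.4 to 93.7 in CT and 59, 102, 77.8, 43.7 and 104 in FT1 to FT5, without a shared direction.

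miR-21, an abundant miRNA often raised in carcinomas and lying within the span of Vmp1, was above the CT range in FT1 to FT4. CT1 to CT5 had 2573, 1182, 1490, 1031 and 1164 normalized counts, and FT1 to FT5 had 2817, 2868, 2913, 4288 and 1391. CT1 lay close to the induced tubes and FT5 within the controls. The log2 fold change was 0.94 ± 0.57 (SE, edgeR adjusted p = 0.759). miR-7a, which targets growth factor signalling, was above in FT1, FT2 and FT4 with 133, 135 and 187 against 30.7 to 94.5 in CT, and FT3 and FT5 had 41.1 and 91 (log2 fold change 1.15 ± 0.50, edgeR adjusted p = 0.611). The deposited counts of miR-7a exceeded the negative-control level in 2 of 5 CT and 4 of 5 FT.

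The let-7 family lay high in FT1, FT2 and FT4 and low in FT3. All 9 members were well-detected. In FT1 and FT4, 9 of 9 were above the CT range, and in FT2 8 were above and let-7g was below. In FT3 0 were above and 8 below, with miR-98 inside the range, and in FT5 only let-7e was above and 0 were below. The share of all miRNA counts taken by the 8 let-7 probes, miR-98 left out, was 15.4% to 21.2% in CT, 38.1% in FT1, 41.8% in FT2, 8.4% in FT3, 40.2% in FT4 and 21.5% in FT5. Over the 9 members the median ratio to the CT mean was 2.5 in FT1, 4.76 in FT2, 0.476 in FT3, 6.04 in FT4 and 1.18 in FT5.

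let-7i had the highest fold change in the family. Its normalized counts were 1470, 2246, 2557, 2137 and 1314 in CT1 to CT5 and 5924, 27178, 897, 16342 and 2341 in FT1 to FT5. FT2 was 14.4 times and FT4 8.68 times the CT mean, FT3 was under all CT tubes, and FT5 was inside their range. The log2 fold change was 2.44 ± 0.77 (SE, edgeR adjusted p = 0.2), and the adjusted p was 0.0245 without FT3. Without FT2 the log2 fold change was 1.71 with an adjusted p of 0.795.

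let-7b, the most abundant member, had 5919, 10847, 8313, 7343 and 6610 in CT1 to CT5 and 14219, 66309, 2805, 51463 and 9896 in FT1 to FT5. The pattern was that of let-7i, with FT2 and FT4 highest and FT3 lowest. let-7g differed from it in FT2. It had 4823 to 7100 in CT and 16656, 3186, 3155, 21177 and 6198 in FT1 to FT5, so FT2 was at 0.538 times the CT mean where let-7b was at 8.69 times. These 2 members differ at 4 of 22 bases and stood on opposite sides of the CT range in FT2.

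Over the family, the median log2 fold change in FT against CT was 1.64, against 0.28 over the well-detected miRNAs. An unadjusted p below 0.05 was found for 7 of 9, all higher, against 7.07% of all 566 miRNAs and 30 of the 136 well-detected. None of the 9 passed the adjusted threshold. All 9 fold changes were above 0 with the scaling used here, and let-7d and let-7g were below 0 after quantile normalization. The size of the family's fold change depended on the scaling. Over the other scalings tried, quantile normalization and subtracted negative controls among them, the family's median log2 fold change ran from 0.25 to 2.19. For let-7i it was 0.85 after quantile normalization.

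**Figure D2:**
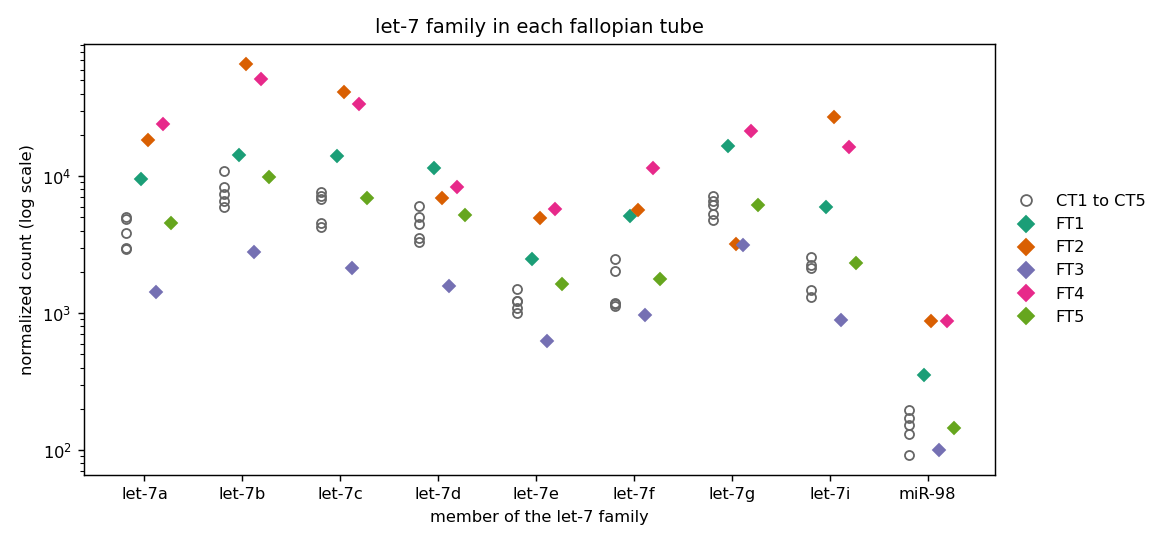
Normalized counts (log scale) of the 9 let-7 family members in each control tube (open circles) and each doxycycline-induced tube (coloured diamonds). FT1, FT2 and FT4 lie above the controls except for let-7g in FT2 (3186), and FT3 lies below them for 8 members.

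RNA content moved with these tubes. The geometric mean of the 4 housekeeping mRNAs over that of the miRNAs was 0.842 to 2.70 in CT, and it was 8.39 in FT1, 31.1 in FT2, 0.517 in FT3, 7.71 in FT4 and 1.16 in FT5. The tubes with high let-7 thus had the highest ratios and FT3 the lowest. Total miRNA counts over the geometric mean of the top 100 were 318 to 406 in CT and 449, 894, 348, 922 and 383 in FT1 to FT5, so FT2 and FT4 had their counts concentrated in fewer miRNAs. The ligation controls over the positive controls gave 1.55 to 6.09 in CT and 1.35, 1.52, 6.13, 0.61 and 5.07 in FT1 to FT5. The part of RNA content and ligation in the differences of FT1 to FT4 was not tested.

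The miRNAs of the Hox clusters followed the let-7 family in FT1, FT2 and FT4. miR-10a lies within the RefSeq span of Hoxb3 and miR-10b within that of Hoxd3 and Hoxd4. miR-10a had 710, 896, 1264, 917 and 930 normalized counts in CT1 to CT5 and 2608, 7736, 575, 7034 and 694 in FT1 to FT5. Above all CT tubes were FT1, FT2 and FT4, and below them FT3 and FT5 (log2 fold change 1.98 ± 0.70, edgeR adjusted p = 0.307). miR-10b had 472 to 775 in CT and 1094, 3513, 395, 2447 and 547 in FT1 to FT5, so its values were above in the same 3 tubes.

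miR-196b, which targets Hox genes, spread more widely. It had 190, 610, 587, 238 and 126 in CT1 to CT5 and 455, 6931, 51.9, 728 and 27.3 in FT1 to FT5. FT2 was 23.9 times the CT mean and FT5 0.094 times, and FT1 was inside the CT range. The deposited counts of miR-196b in FT3 and FT5 were just below the negative-control level, so 0.094 is a ratio at background. The log2 fold change was 2.22 ± 0.97 (SE, edgeR adjusted p = 0.611) and -0.16 without FT2. miR-196a had 23.4 to 102 in CT and 178, 208, 17.3, 129 and 8.18 in FT1 to FT5, with the deposited counts of FT3 and FT5, 8 and 15, below the negative-control level.

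miR-99a, miR-99b and miR-100, which target the mTOR pathway, had a median log2 fold change of 1.10, and 0 of 3 had an unadjusted p below 0.05. miR-99b was above the CT range in FT1, FT2, FT4 and FT5, with 168 to 251 in CT and 439, 834, 123, 586 and 368 in FT1 to FT5. miR-100 had 3323 to 4076 in CT and 5427, 3193, 2500, 12720 and 4101 in FT1 to FT5, so FT2 lay just under the range, and its log2 fold change of 0.59 ± 0.60 turned negative after quantile normalization.

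Other abundant miRNAs showed the same 3 tubes above the range. miR-126-3p, an endothelial miRNA made from an intron of Egfl7, had 3941, 6376, 6148, 5064 and 3830 in CT1 to CT5 and 11847, 54989, 2825, 22324 and 4185 in FT1 to FT5. Its log2 fold change was 1.92 ± 0.75 (SE, edgeR adjusted p = 0.471). The other arm of the same hairpin, miR-126-5p, did not run with it, with 208 to 398 in CT and 279, 52.1, 380, 282 and 236 in FT1 to FT5. In FT2 the 3p arm was thus 11.1 times the CT mean and the 5p arm 0.18 times. The deposited count of the 5p arm in FT2 was 22, below the negative-control level of 36.1, so its ratio there is set by background.

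miR-22 had 1071 to 2089 in CT and 2394, 16178, 1297, 6755 and 1295 in FT1 to FT5 (log2 fold change 1.75 ± 0.70, edgeR adjusted p = 0.503). miR-210, a miRNA induced by hypoxia, had 53.5, 83.2, 92.1, 66.2 and 63.2 in CT1 to CT5 and 170, 1732, 90.8, 374 and 42.5 in FT1 to FT5. In 3 tubes (FT1, FT2 and FT4) it was above and in FT5 below the CT range. Its log2 fold change was 2.74 ± 0.76 (SE, edgeR adjusted p = 0.106), with an adjusted p of 0.0245 without FT3 and 0.0126 without FT5. Without FT2 it was 1.23 with an adjusted p of 0.795.

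A group of less characterized miRNAs was highest in FT2 by a wide margin. miR-2140 had 19.3 to 40 normalized counts in CT and 29.3, 1308, 19.4, 21.9 and 29.4 in FT1 to FT5, and its log2 fold change of 3.24 became -0.21 without FT2. miR-2141 had 72.2 to 208 in CT and 378, 5848, 128, 143 and 37.6 in FT1 to FT5. miR-1944 had 949 to 3316 in CT and 3713, 43404, 1746, 1915 and 1051.

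miR-1224 and miR-532-5p were also highest in FT2. miR-1224 had 42.4 to 71.3 in CT and 62.5, 2563, 62.7, 239 and 43.6 in FT1 to FT5 (edgeR adjusted p = 0.104). miR-532-5p had 15.3 to 32.8 in CT and 49.2, 632, 28.1, 105 and 28.3 in FT1 to FT5 (edgeR adjusted p = 0.106). FT4 was the second highest tube for both, and for miR-672 and miR-1198. miR-672 had 22.3 to 58.6 in CT and 507 in FT2 and 272 in FT4, and miR-1198 had 21.1 to 40.6 in CT and 310 and 81.5. miR-2132 had 14.4 to 33.7 in CT, under the negative-control level in all 5 tubes, and 727 in FT2.

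**Figure D3:**
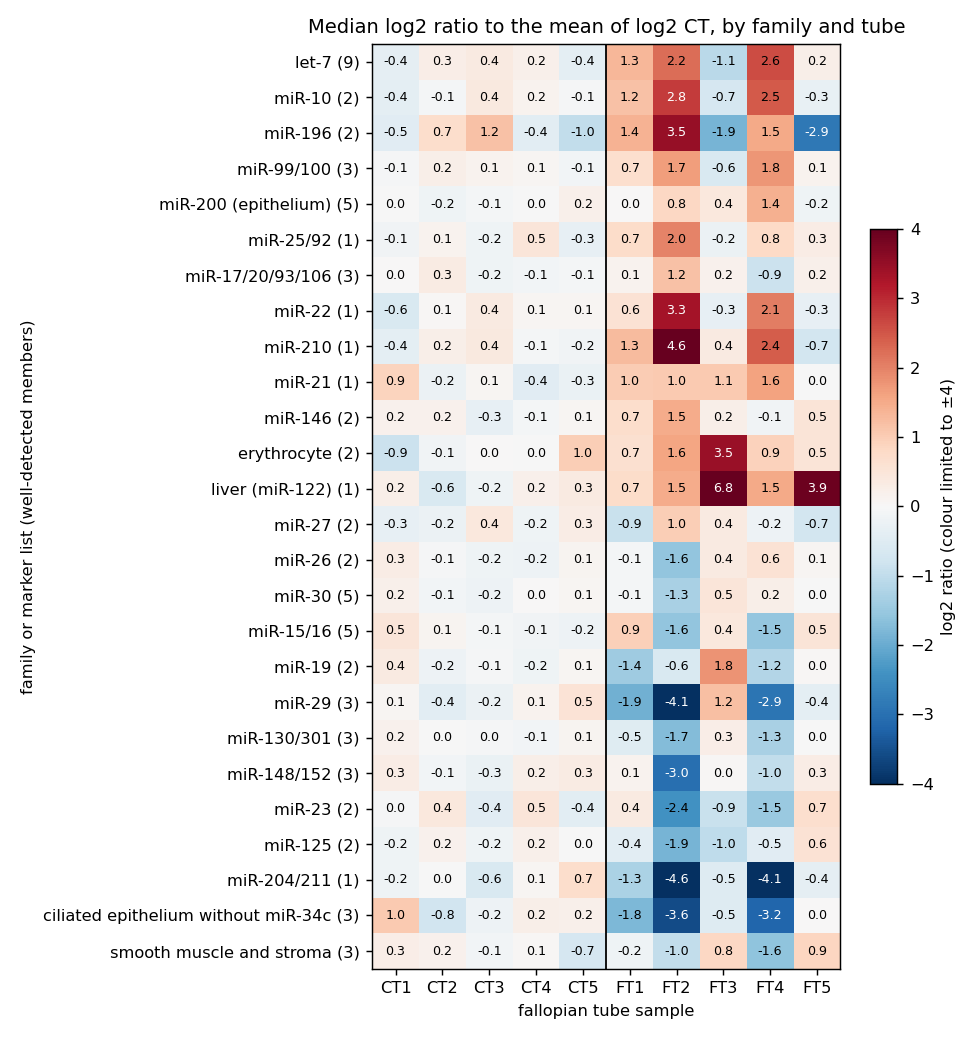
Median log2 ratio of the well-detected members of each family or marker list to the mean of the 5 control tubes on the log2 scale, in each control and induced tube (number of members in brackets; colours limited to -4 and 4). FT1, FT2 and FT4 are above 0 for let-7, miR-10 and miR-99/100 and below 0 for miR-29 and miR-204, and FT3 has the opposite sign for let-7 (-1.07) and miR-29 (1.19).

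Among the miRNAs of ciliated cells, both arms of the miR-34b hairpin lay below the CT range in FT1, FT2 and FT4. miR-34b-3p had 544, 155, 152.5, 304 and 307 normalized counts in CT1 to CT5 and 65.6, 18.9, 166, 21.9 and 264 in FT1 to FT5. Below all CT tubes were FT1, FT2 and FT4, and FT3 and FT5 were inside their range. Its log2 fold change was -1.43 ± 0.65 (SE, edgeR adjusted p = 0.635). In FT2 and FT4 the deposited counts were 8 and 11, below the negative-control level, so miR-34b-3p was not detectable there above background.

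miR-34b-5p, from the other arm, had 698, 119, 335, 408 and 389 in CT1 to CT5 and 98.1, 28.4, 681, 37.8 and 296 in FT1 to FT5, with the same 3 tubes below the range (log2 fold change -0.77 ± 0.70, edgeR adjusted p = 0.759). Its deposited counts in FT2 and FT4 were also below the negative-control level, so it was not detectable there either. miR-449a, which shares the seed of miR-34b-5p and lies within Cdc20b, did not go with it. It had 33.4 to 66.7 in CT and 125, 28.4, 30.3, 43.7 and 45.8 in FT1 to FT5, so FT1 was above the range. miR-34c stood at the lowest deposited value of 1 in CT2, CT5, FT2 and FT4 and in 16 of the 22 samples, and had up to 2241 deposited counts in the other tubes. In CT2 and CT5 miR-34b-3p, from the same cluster, had 236 and 131 deposited counts, so no fold is given for miR-34c. The median log2 fold change of the list was -0.97 with it (4 members) and -0.77 without it.

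miR-204, an epithelial miRNA within Trpm3, showed the same tubes. It had 1337, 1484, 997, 1591 and 2460 in CT1 to CT5 and 622, 61.6, 1061, 89.5 and 1171 in FT1 to FT5. FT2 was at 0.0409 times and FT4 at 0.0594 times the CT mean, and FT3 and FT5 were inside the CT range. The deposited count of miR-204 in FT2 was below the negative-control level, so the ratio there is set by background. Its log2 fold change was -1.39 ± 0.69 (SE, edgeR adjusted p = 0.688).

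The miR-29 family, which represses collagens and other matrix genes, was low in FT1, FT2 and FT4 and high in FT3. All 3 members were below the CT range in the first 3 tubes and above it in FT3. miR-29b had 2560, 1923, 2156, 2692 and 3959 in CT1 to CT5 and 679, 87.6, 7806, 274 and 1879 in FT1 to FT5. FT2 was at 0.034 times and FT3 at 3.03 times the CT mean. The deposited count of miR-29b in FT2 was just above the negative-control level, so the ratio there is close to background. The tubes thus opposed each other, and the log2 fold change was -0.31 ± 0.80 (SE, edgeR adjusted p = 0.881), and it was 0.000316 without FT2 and -1.86 without FT3. Compared on log2 counts, it was -1.65 after quantile normalization and -1.77 and -1.73 with limma at pseudocounts of 1 and 10. In the methods' t-test it was -1.78 as a difference of means. miR-29b passed the threshold in none of the settings tried. miR-29c had 1186 to 2656 in CT and 463, 109, 4190, 241 and 1395 in FT1 to FT5. miR-29a, the most abundant, spread least, with 2939 to 3976 in CT and 2265, 1781, 5682, 1922 and 3280, and its log2 fold change of -0.29 was 0.03 with miR-425 scaling.

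**Figure D4:**
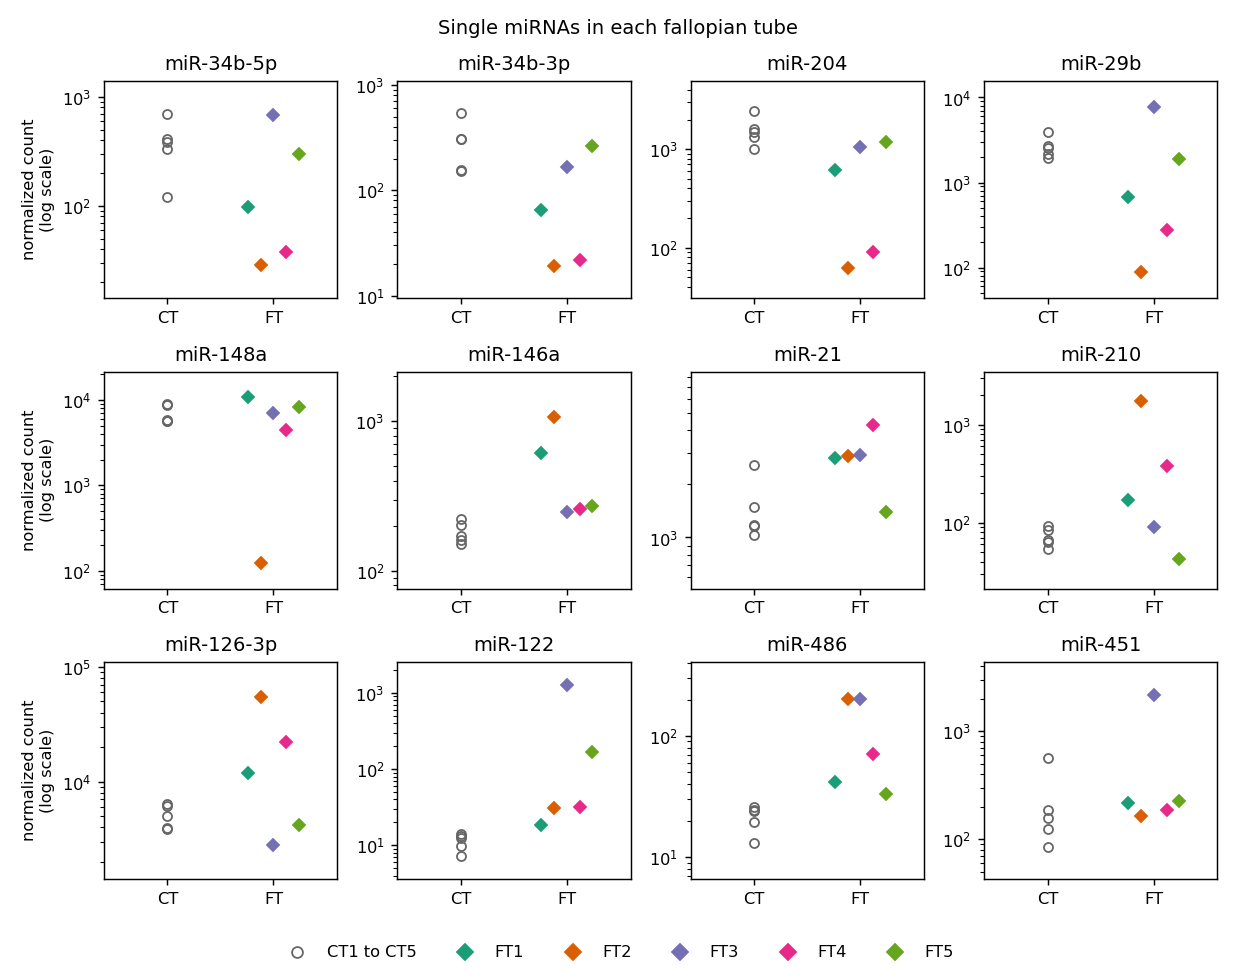
Normalized counts (log scale, with its own range in each panel) of 12 miRNAs in the control tubes (open circles) and the doxycycline-induced tubes (coloured diamonds, offset sideways by tube). FT1, FT2 and FT4 lie under the controls for miR-34b, miR-204 and miR-29b, all 5 induced tubes lie above for miR-146a, miR-122 and miR-486, and FT3 (2194) stands alone for miR-451.

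Several other miRNAs were far below CT in FT2, FT4 or both. miR-148a, a miRNA of differentiated secretory tissues, had 5713, 5686, 5818, 8796 and 9018 in CT1 to CT5 and 10734, 123, 7075, 4421 and 8367 in FT1 to FT5. FT2 was at 0.018 times the CT mean while FT1 was above the range. miR-30c had 1616 to 3188 in CT and 135 in FT2 and 563 in FT4, with FT1, FT3 and FT5 inside the range at 1757 to 2449. miR-15b had 247 to 779 in CT and 33.2 and 65.6 in FT2 and FT4, and 1348 in FT1. The deposited count of miR-15b was 14 in FT2, below the negative-control level, and 33 in FT4, just above it. miR-16, of the same seed family, had 2654 to 4658 in CT and 7326, 1241, 4534, 5199 and 3820 in FT1 to FT5. In FT4 miR-16 was thus above the range and miR-15b below it.

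miR-301a and miR-872 were below the CT range in 4 tubes each. miR-301a had 176 to 201 in CT, a narrow range, and 118, 35.5, 225, 47.7 and 155 in FT1 to FT5. miR-872 had 212.3 to 314 in CT and 305, 68.7, 175, 119 and 192. Deposited counts were below the negative-control level for miR-301a in FT2 and FT4 and for miR-872 in FT2. miR-375, an endocrine and epithelial miRNA, was below the range only in FT2 and FT3, with 259 to 913 in CT and 662, 168, 125, 268 and 527. Their edgeR adjusted p was 0.759 for each.

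The 2 well-detected members of the miR-125 family, homologous to lin-4, were below the CT range in FT1 to FT4 and above it in FT5. The third, miR-351, was not well-detected and had 4.37 to 13.1 normalized counts in CT and 6.28, 206, 2.16, 17.9 and 8.72 in FT1 to FT5, above the negative-control level only in FT2 (log2 fold change 2.41 ± 0.83, edgeR adjusted p = 0.293). miR-125b-5p, which had the highest mean count of all well-detected miRNAs, had 14189, 15765, 12692, 16028 and 13375 in CT1 to CT5 and 9956, 5344, 9576, 11716 and 21728 in FT1 to FT5. miR-125a-5p had 2703, 3832, 2933, 3879 and 3439 and 2659, 666, 1219, 2167 and 4916. FT2 was lowest for both. The log2 fold changes were -0.30 ± 0.61 and -0.53 ± 0.60 (SE, edgeR adjusted p = 0.854 and 0.759), and that of miR-125b-5p was 0.02 with miR-425 scaling.

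Some miRNAs were named because they lay farthest from CT in 1 of the tubes. In FT1 the probe shared by miR-1937a and miR-1937b had 4.54 normalized counts against 550 to 2290 in CT, and FT2 and FT4 had 123 and 127. miR-1937c had 9.07 in FT1 against 266 to 1474 in CT. The deposited counts of both probes in FT1 were below the negative-control level. miR-720, now known as a tRNA fragment, had 1311 in FT1 and 56129 in FT4 against 8651 to 28042 in CT. These tubes were on opposite sides of the range. miR-1839-5p was above in FT1 (189), FT2 (87.6) and FT4 (268) against 32 to 68.8 in CT. In FT3 miR-202-3p, a gonadal miRNA, had 8.64 against 35.6 to 65.6 in CT, with a deposited count below the negative-control level. FT5 lay farthest below CT in miR-196b, 4.64-fold under the lowest CT tube, but with a deposited count just below the negative-control level. miR-143, a smooth muscle miRNA, had 4506 in FT5 against 1862 to 3101 in CT.

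Smooth muscle and stroma markers varied without a shared direction. miR-143 had 3101, 2787, 2286, 2580 and 1862 in CT1 to CT5 and 1185, 777, 6027, 559 and 4506 in FT1 to FT5, so FT1, FT2 and FT4 were below and FT3 and FT5 above the range. miR-145, from the same transcript, had 2518 to 10024 in CT and 4151, 3769, 4046, 1535 and 11944. The summed level of the 5 markers was 4713 to 13280 in CT and 3111 to 16868 in FT. The leukocyte list summed to 593 to 1164 in CT and 785 to 1336 in FT. The part of cell composition in the differences above was not tested.

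Members of the epithelial miR-200 family split within tubes. miR-200b had 2795, 2461, 3244, 2725 and 2766 in CT1 to CT5 and 5948, 7698, 1714, 18734 and 2221 in FT1 to FT5. miR-200c had 4154, 4537, 4118, 4073 and 4935 and 7765, 7919, 1848, 21362 and 3877. Both were above the CT range in FT1, FT2 and FT4 and below it in FT3 and FT5. miR-141 had 301.4 to 546 in CT and 205, 130, 1483, 714 and 307, on the other side of the range from both in FT1 to FT3, above it with them in FT4 and inside it in FT5. miR-200a had 1149 to 1478 in CT and 1303, 550, 1714, 3483 and 1344, and miR-429 had 837 to 1312 and 755, 1855, 1489, 1099 and 994. In FT2 the 3 members with 1 seed (miR-200b, miR-200c and miR-429) were above the range and the 2 with the other seed were below it, but in FT3 miR-429 went with miR-200a and miR-141. The family's median log2 fold change was 0.43, and miR-200c and miR-141 turned negative after quantile normalization.

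miRNAs that lie together in the genome did not always run together. miR-99b (chr17:17830194-17830215), let-7e (chr17:17830366-17830387) and miR-125a-5p (chr17:17830817-17830840) lie on the + strand within the RefSeq span of Spaca6 (GRCm38.p6). In FT1, FT2 and FT4 miR-99b and let-7e were above the CT range while miR-125a-5p was below it. In FT2 the ratios to the CT mean were 3.88, 4.13 and 0.2. In FT3 all 3 were below and in FT5 all 3 were above. miR-200c and miR-141 (chr6:124717917-124718346) were on opposite sides in FT1, FT2 and FT3. Of 23 groups of well-detected miRNAs within 10000 bp of a neighbour, holding 44 miRNAs and with a miRNA made from several loci counted at each, 10 had members above and below the CT range in 1 tube or more.

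**Figure D5:**
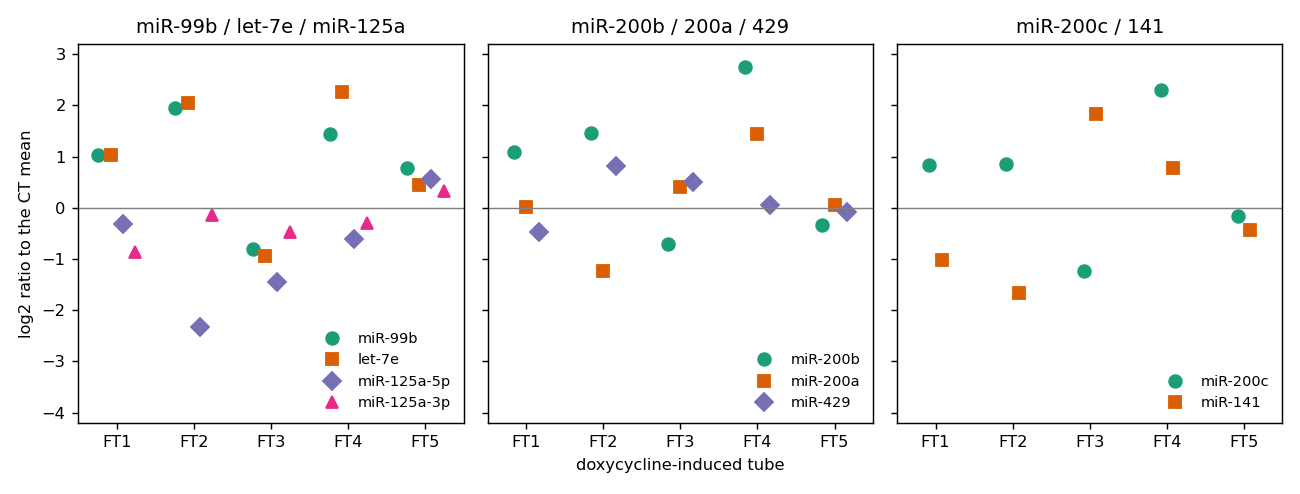
Log2 ratio to the mean of the 5 control tubes for neighbouring miRNAs at 3 loci, in each doxycycline-induced tube (points offset sideways by miRNA). In FT2 miR-99b (3.88 times the CT mean) and let-7e (4.13) stand above 0 and miR-125a-5p (0.2) below, and miR-200c and miR-141 stand on opposite sides of 0 in FT1, FT2 and FT3.

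A sequence property went with the differences in FT2 and FT4. Over the 102 well-detected miRNAs with a matched sequence, the share of G in the mature miRNA and the log2 ratio to the CT mean had Pearson r = 0.589 in FT2, 0.549 in FT4, 0.384 in FT1, -0.327 in FT3 and -0.106 in FT5. In the CT tubes, each set against the mean of the other 4, it was -0.29 to 0.399. Without the let-7 family (93 miRNAs) it was 0.552 in FT2 and 0.482 in FT4. In FT2 the third of miRNAs richest in G (at least 30.4% G) had a median log2 ratio of 1.67 and the third poorest in G (at most 21.7%) had -1.11, and in FT4 these were 1.55 and -0.91. The correlations are across miRNAs within a sample, which share a library and are not independent, and the part of base composition in the differences was not tested.

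Of 48 lists of families, clusters and marker miRNAs, 44 had a well-detected member, and 98 of the 136 well-detected miRNAs were in a list. The only list member past the threshold was miR-122. Among families not described above, those with 1 well-detected member included miR-181a (log2 fold change 1.06), miR-25 (0.88) and miR-466g of the Sfmbt2 cluster (0.94). miR-181a, a lymphocyte miRNA, had 393 to 818 in CT and 705, 4264, 285, 801 and 672 in FT1 to FT5, so FT2 alone was above the range. miR-25 had 368 to 645 in CT and 765, 1822, 391, 807 and 575, above in FT1, FT2 and FT4. Over families with more members, the median log2 fold change was 0.29 over 5 members of the cell-cycle regulating miR-15/16 family, -0.03 over 5 of miR-30, 0.07 over 3 of the growth-promoting miR-17 family, -0.38 over both miR-23 members and -0.36 over 3 members of the miR-130 and miR-301 family. None of these families had a well-detected member with an unadjusted p below 0.05.

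miR-425, which the study used as its qPCR reference, had 137, 118, 94, 159 and 185 normalized counts in CT1 to CT5 and 154, 80.5, 117, 69.6 and 125 in FT1 to FT5. FT2 and FT4 were below the CT range. Of the 30 miRNAs named in the study's text and tables, 21 were well-detected and 27 had a log2 fold change above 0. Over all 566 miRNAs 327 were above 0. An unadjusted p below 0.05 was found for 23 of the 30, against 41 of all 566, and miR-122 passed the adjusted threshold. The study chose most of them on these samples, so their direction is not independent evidence.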

How the data were processed

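RNA was extracted from frozen mouse fallopian tubes and 100 ng per tissue sample was profiled on the NanoString nCounter mouse miRNA panel. The authors deposited counts per probe, 626 probes in 22 samples, of which 566 are mouse miRNAs (lowest value 1). Per the study's methods, tissue was normalized in nSolver to the 100 most abundant miRNAs and tested with a two-tailed t test. The deposited counts were raw: whole numbers with unequal totals. All 22 columns were matched to samples by title, with 0 left unmatched. Here, the counts of the 10 tubes were fitted with edgeR 4.0.16 (R 4.3.3; quasi-likelihood, effective library size from the geometric mean of a fixed set of 100 miRNAs) over all 566 miRNAs without a filter, with Benjamini-Hochberg adjustment at 0.05. limma 3.58.1 and DESeq2 1.42.0 were alternatives. The fit was tested on simulated data with known changes. There, CT and FT had the same dispersion, and a changed miRNA had the same fold in every FT tube. The induced tubes here spread more and oppose each other, so the simulation cannot show how the fit performs on them. Background was judged by the mean plus 2 SD of the 8 negative controls, and a count is limited by counting error at low depth.

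The miRNAs named were those past the threshold, those with 5 FT on one side of all CT, up to 15 per direction by p, the 3 farthest from CT per tube and side, those the study names, up to 4 per list, and miR-425. Further members of let-7, miR-200 and neighbouring groups were named with their values known. The members, lists and alternatives were chosen with earlier results of these data known. No table of the authors' own comparisons was used. Other scalings, tests, filters, a replicate block and each tube left out were tried. Alleles at other loci that the tubes carried are not reported here.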

Additional observations from a re-analysis of the deposited data

Results flagged for a closer look

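Among 118 groups of 5 tubes examined (59 named miRNAs in CT and in FT), 3 held a tube far from the other 4 on the log2 scale, where chance gives about 1 in 20. miR-532-5p was low in CT1, with 15.3 normalized counts against 26.7 to 32.8 in the other control tubes, a gap of 0.732 of the whole range. Its deposited counts in CT1 and in CT5, the highest control tube, were below the negative-control level, so this gap lies at background. miR-2140 was high in FT2, with 1308 against 19.4 to 29.4 in the other induced tubes (0.902 of the range). miR-451, the red blood cell miRNA, was high in FT3, with 2194 against 163 to 224 (0.879 of the range).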

How the results depend on the processing

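The number of miRNAs past the threshold was 1 (miR-122), also with the tubes scaled by their own top 100 miRNAs and with the metastases in the fit. It was 2 with TMM or median scaling (miR-486 added), 4 with DESeq2 (417 adjusted p-values not given), 6 with negative controls subtracted, and 0 with miR-425 scaling, quantile normalization with limma, limma at pseudocounts of 1 and 10, minimum mean counts of 20 and 50, and the adjusted p of the t-test that the methods name. In the same order, 72, 61, 19, 16, 33, 28 and 13 miRNAs had an unadjusted p below 0.05. Leaving out a tube gave 0 to 12. With the replicate block it was 0 (17 with an unadjusted p below 0.05), but the numbers did not pair the tubes: same-numbered deviations correlated at -0.375 to 0.299 and no tube correlated best with its own number. Well-detected miRNAs with no overlap between groups were 3, 1 with TMM scaling (miR-486), and 3 to 7 with a tube left out (6 without FT1, 7 without FT3 and 7 without FT5). The adjusted p of miR-122 ran from 0.000812 to 0.819.

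Of 59 named miRNAs, 12 changed sign in some setting. After quantile normalization the log2 fold change was -0.19 for let-7d, -0.21 for let-7g, -0.25 for miR-100, -0.18 for miR-200c and -0.10 for miR-141. miR-141 was also at -0.10 and -0.085 with limma at the pseudocounts of 1 and 10, -0.10 as a difference of means in the methods' t-test and -0.13 with the replicate block. With miR-425 scaling, which moved the median of all 566 miRNAs from 0.15 to 0.64, miR-29a was at 0.0257 and miR-125b-5p at 0.0245. With a tube left out, the log2 fold change ran from -0.21 to 3.54 for miR-2140, from -1.86 to 0.000316 for miR-29b, from -0.076 to 0.60 for miR-200a, from -0.32 to 0.68 for miR-141, from -0.16 to 2.54 for miR-196b and from -0.17 to 2.11 for miR-451. The cause of these changes was not tested. Depth limits miRNAs near the negative controls, such as miR-122 in CT.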
